A study of Homo sapiens with 26 samples.

Results

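The G1 control genes described here are 8 of the 16600 genes measured on the arrays: the D-type cyclins CCND1, CCND2 and CCND3, their kinases CDK4 and CDK6, the inhibitors CDKN1B (p27) and CDKN2B (p15), and the retinoblastoma gene RB1. They were chosen by symbol, as the probesets whose platform annotation gives exactly one of these 8 symbols, which makes 120 of 844005 probesets. A probeset is a small group of probes that reads an exon or part of it. A mean brightness above the background, the median of probesets with no gene (4.65 on the log2 scale), was reached by 111 of the 120 probesets, and each of the 8 genes had the minimum of 3 such probesets that a gene value required.

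D-type cyclins bind CDK4 or CDK6 in response to growth factors, and the active kinases phosphorylate RB1, which releases E2F factors and lets the cell pass from G1 into S phase. CDKN2B blocks CDK4 and CDK6 directly and is known as a target of TGF-β, whereas CDKN1B binds cyclin-CDK complexes, restrains CDK2, and is abundant in resting cells. In mammary epithelium CCND1 is known as a target of growth factor signalling and as an oncogene, and glucocorticoids are known to slow the G1 phase of many cell types.

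MCF10A, an established human mammary epithelial cell line that is not tumorigenic, was grown with insulin, cholera toxin, hydrocortisone, horse serum and EGF and starved overnight. All groups share this history. The 2 untreated arrays (0 min) hold starved cells, and the treated arrays hold cells given EGF (10 ng per ml), a ligand of the receptor EGFR, DEX (dexamethasone, 100 nM), a synthetic ligand of the glucocorticoid receptor, or EGF+DEX, each with duplicate arrays at 20, 40 and 60 min and a single array at 120 and at 240 min. That makes 26 arrays in 16 groups, and every treated time was set against the same 2 untreated arrays, since no untreated arrays at later times were used here. The labels tell replicates apart by number only, so p-values measure the spread between these samples, which may be technical, and the single late arrays were taken to vary as the duplicated ones do.

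The array medians lay between 5.28 and 5.38 on the log2 scale, and 61.1% to 62.7% of probesets were above the background on each array. Basal epithelial markers were bright (8 of 9 measured, gene values of 9.70 to 13.0), and markers of luminal epithelium (5.43 to 7.55), fibroblasts (5.48 to 8.01) and leukocytes or endothelium (5.27 to 7.17) were dimmer. DCN, the fibroblast marker with the highest value, rose with DEX by 1.26 at 240 min (limma F-test, adjusted p = 0.00536), TP63, a basal marker, fell by 1.28 (adjusted p = 0.00142), and the luminal factor FOXA1 fell by 0.89 at 120 and 240 min (adjusted p = 0.0141). With EGF+DEX against EGF at the late times, TP63 was lower by 1.13 (adjusted p = 1.76e-04), FOXA1 by 0.82 (adjusted p = 0.0346) and LAMB3, another basal marker, by 0.68 (adjusted p = 0.00969). Over all times of that comparison, 4 of the 8 basal markers, KRT14, KRT17, LAMB3 and TP63, were lower at the adjusted p alone, by 0.29 to 0.44, as were 14.1% of all genes, and none reached 1.5-fold. The part of these markers in the results below was not tested. Bright genes as a whole also read lower with DEX. The median difference of EGF+DEX against EGF was +0.08 for genes with values of 5 to 6 and −0.14 for genes with values of 7 to 8. Several differences below are therefore given with the median of the genes within 0.5 of the member's own level, called genes of like brightness. For every member this median is drawn in the figure that shows differences with their intervals. In bulk RNA, fewer cells of a type and less RNA per cell cannot be told apart.

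RefSeq promoter sequences were matched to 6 of the 8 genes by symbol, and the 250 bases before the start are shown for CDKN1B, whose difference had the lowest adjusted p of the 8 genes, and for CDK6, the member with the largest late difference above untreated cells with EGF. Both are given 5′ to 3′ on the strand of the gene in the build GRCh38.p14, CDKN1B at chr12:12717118-12717367 on the plus strand and CDK6 at chr7:92836574-92836823 on the minus strand. Capitals mark CCAAT boxes (CCAAT) and GC boxes (GGGCGG), sought on both strands.
CDKN1B: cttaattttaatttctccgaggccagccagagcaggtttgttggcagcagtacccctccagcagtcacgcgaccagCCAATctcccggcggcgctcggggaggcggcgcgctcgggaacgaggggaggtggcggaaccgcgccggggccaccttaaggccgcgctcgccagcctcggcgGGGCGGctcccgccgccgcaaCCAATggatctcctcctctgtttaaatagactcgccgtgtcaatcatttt
CDK6: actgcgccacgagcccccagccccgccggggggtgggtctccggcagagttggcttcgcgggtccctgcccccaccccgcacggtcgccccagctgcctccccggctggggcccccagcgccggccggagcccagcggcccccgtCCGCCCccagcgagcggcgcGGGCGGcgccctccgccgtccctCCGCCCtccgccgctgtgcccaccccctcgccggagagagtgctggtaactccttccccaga
The CDKN1B window holds 2 CCAAT boxes and 1 GC box, and the CDK6 window holds 3 GC boxes and no CCAAT box. Of 35116 windows of the same length, 32.0% hold a CCAAT box and 42.6% a GC box. An AP-1 site (TGANTCA, in 6.57% of windows) and a forkhead site (GTAAACA, in 2.98%) were also sought, as was the inverted repeat CTCC and GGAG with up to 2 bases between (in 3.98%), and none of these letters occurs in either window. A match of letters is a description only.

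CCND1 (chromosome 11, 69641156 to 69654474 in GRCh38.p14) was lower late after DEX, and its values under the 3 treatments lay furthest apart at 240 min. The untreated arrays gave log2 values of 8.53 and 8.54. With EGF the arrays read 8.47 and 8.72 at 20 min, 8.81 and 8.43 at 40 min, 8.79 and 8.59 at 60 min, 9.02 at 120 min and 9.02 at 240 min. With DEX they read 8.31 and 8.63 at 20 min, 8.10 and 8.25 at 40 min, 8.30 and 8.18 at 60 min, 8.20 at 120 min and 7.63 at 240 min. Both late EGF arrays thus lay above the untreated pair and both late DEX arrays below it, and the DEX array at 240 min was the lowest of all 26. The share of all genes whose arrays at 60 min or later separate from the untreated pair was not counted, here or for the genes below.

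**Figure D1:**
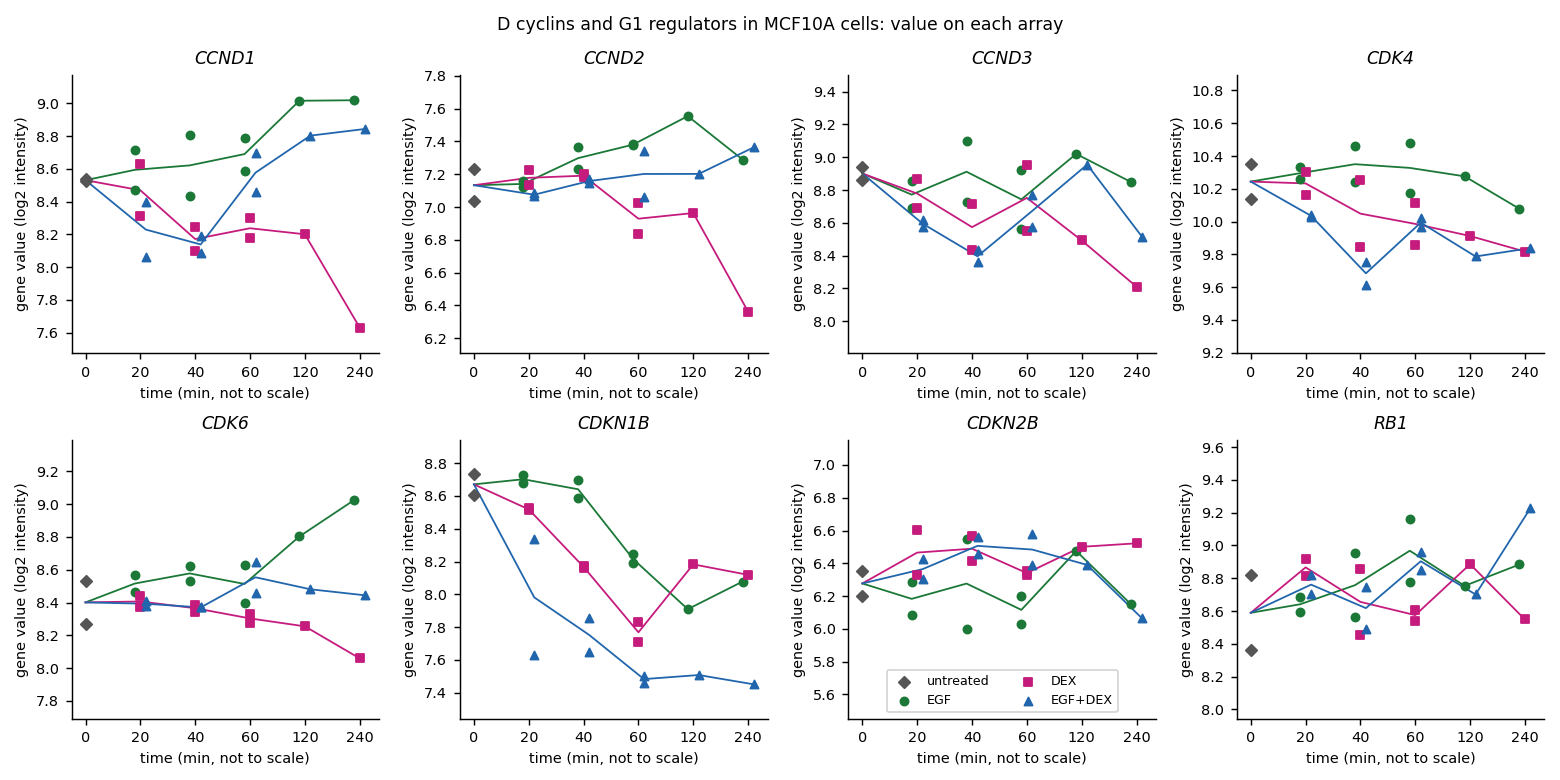
Gene value (log2 intensity) of each of the 8 genes on each of the 26 arrays against time in minutes, with 1 point per array and lines through the means of each treatment from the mean of the untreated arrays. CCND1 ended at 9.02 with EGF, 8.84 with EGF+DEX and 7.63 with DEX, and CDKN1B was lower with EGF+DEX than with EGF or DEX at every time.

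A gene was called when limma gave an adjusted p under 0.05 (Benjamini-Hochberg over all 16600 genes) and a difference of at least 1.5-fold. For all times of EGF or DEX against untreated cells, limma's F-test over the 5 times was used with the largest difference, and elsewhere the mean difference was tested. At 120 and 240 min, DEX lowered 1 of the 8 genes, CCND1, where 2.05% of all genes were called lower. CCND1 fell by 0.61 ± 0.16 (SE, 1.53-fold, 2 arrays against 2, limma, adjusted p = 0.0331), while the 2085 genes of like brightness had a median of −0.12. At 240 min alone, where 5.46% of all genes passed at an adjusted p under 0.05, CCND1 fell by 0.90 ± 0.20 (limma, adjusted p = 0.0122). The call rested on few arrays: without the DEX array at 240 min the difference was −0.33 (adjusted p = 0.572), and without untreated replicate 1 or 2 the adjusted p was 0.169 or 0.124. The call was also lost with quantile normalization (−0.58, limma, adjusted p = 0.0462) and the mean of probesets (−0.58, adjusted p = 0.0347), both just under 1.5-fold. Cyclic loess between arrays lost it too (−0.50, limma, adjusted p = 0.0877).

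The late EGF difference of CCND1 was +0.49 ± 0.16 and missed the threshold (limma, adjusted p = 0.159, 95% interval 0.15 to 0.83). With EGF+DEX the arrays read 8.40 and 8.06 at 20 min, 8.19 and 8.09 at 40 min, 8.46 and 8.69 at 60 min, 8.80 at 120 min and 8.84 at 240 min. The EGF+DEX arrays overlapped the DEX arrays at 20 and 40 min and lay above them from 60 min. That is 2 arrays against 2 at 60 min and 1 against 1 later, and the share of all genes that separate so was not counted. At 240 min, with both agents against DEX alone, CCND1 was higher by 1.21 ± 0.23 (2.32-fold, 1 array against 1, limma, adjusted p = 0.0104), where 2.72% of all genes passed. This value shares the DEX array at 240 min with the fall reported above.

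CCND2 (chromosome 12, 4273762 to 4305353), a second D cyclin, was also lower late after DEX. It read 7.23 and 7.04 untreated, and with DEX 7.13 and 7.22 at 20 min, 7.20 and 7.18 at 40 min, 6.84 and 7.02 at 60 min, 6.96 at 120 min and 6.36 at 240 min. The DEX arrays overlapped the untreated pair up to 40 min and lay below it from 60 min. Over all 5 times DEX lowered 2 of the 8 genes, CCND2 and CDKN1B, where 1.92% of all genes were called lower and 3.54% in either direction. The largest difference of CCND2 was −0.77 ± 0.15 at 240 min (1.71-fold, 1 array against 2), with an adjusted p of 0.0233 in limma's F-test and 0.00502 for that time alone. The mean difference of CCND2 over the 5 times was −0.21. The 4319 genes of like brightness had a median of −0.10, and 19.8% of them lay lower than CCND2. Without the DEX array at 240 min its largest difference was −0.20 and the F-test gave an adjusted p of 0.543, and without DEX replicate 2 at 20 min the adjusted p was 0.0525. It was 0.0505 with cyclic loess and 0.0894 with the mean of probesets.

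With EGF, CCND2 read 7.16 and 7.12 at 20 min, 7.37 and 7.23 at 40 min, 7.38 and 7.38 at 60 min, 7.55 at 120 min and 7.29 at 240 min. The late EGF difference was +0.29 ± 0.12 (limma, adjusted p = 0.301), which did not pass. With EGF+DEX the arrays ranged from 7.06 to 7.36 with a median of 7.16, and at 240 min CCND2 was higher than with DEX alone by 1.00 ± 0.17 (2.00-fold, limma, adjusted p = 0.00718). Over the mean of the 5 times, EGF+DEX against DEX gave +0.28 ± 0.06 for CCND2 (adjusted p = 0.0262) and +0.38 ± 0.09 for CCND1 (adjusted p = 0.0218), both under 1.5-fold, with medians near 0 among genes of like brightness (0.00 and 0.01). At 20 and 40 min the differences were below 0 for both, −0.10 and −0.03 for CCND2 and −0.24 and −0.03 for CCND1. Without either the DEX or the EGF+DEX array at 240 min the means were +0.09 for CCND2 (adjusted p = 0.705) and +0.17 for CCND1 (adjusted p = 0.574), and with only the times to 60 min they were +0.05 (0.919) and +0.02 (0.977). CCND1 also missed the threshold without either array at 120 min (0.0861), and CCND2 without 3 other single arrays (0.0537 to 0.0593) and with the mean of probesets (0.0996).

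CCND3 (chromosome 6, 41934933 to 42050035), the third D cyclin, read 8.86 and 8.94 untreated, and 8.56 to 9.10 with EGF (median 8.85). With DEX it ranged from 8.21 to 8.95 (median 8.62), the lowest array again being that at 240 min, and with EGF+DEX from 8.36 to 8.95 (median 8.58). CCND3 passed no comparison. Its late DEX difference was −0.55 ± 0.17 (limma, adjusted p = 0.0678, 95% interval −0.90 to −0.20), with a median of −0.11 among genes of like brightness. With the stricter brightness filter, which keeps probesets above 5.97, the late DEX difference was −0.59 with an adjusted p of 0.0444 in limma. Its late EGF difference was +0.03 ± 0.17 (95% interval −0.32 to 0.39).

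CDK6 (chromosome 7, 92604921 to 92836573), a kinase partner of the D cyclins, was higher late after EGF, by less than 1.5-fold and at an adjusted p that several single arrays decided. It read 8.53 and 8.27 untreated, and with EGF 8.47 and 8.57 at 20 min, 8.53 and 8.62 at 40 min, 8.63 and 8.40 at 60 min, 8.80 at 120 min and 9.03 at 240 min. Both late arrays lay above the untreated pair, and earlier ones overlapped it. CDK6 rose by 0.51 ± 0.12 at 120 and 240 min (1.43-fold, 2 arrays against 2, limma, adjusted p = 0.0441), with a median of +0.05 among 2105 genes of like brightness. This is under 1.5-fold, so CDK6 was not called. In 15 of the 26 fits that leave out 1 array the adjusted p was above 0.05 (0.0547 to 0.447, the highest without untreated replicate 2, with a difference of +0.38, and 0.331 without the EGF array at 240 min), and with the mean of probesets it was 0.0781. In this comparison an adjusted p under 0.05 was reached by 2 of the 8 genes and by 1.68% of all genes, and a call by 1 of the 8, CDKN1B, and by 1.41% of all genes.

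With DEX, CDK6 read 8.44 to 8.28 up to 60 min, then 8.25 at 120 min and 8.06 at 240 min, and its late difference was −0.24 ± 0.12 (limma, adjusted p = 0.283). With EGF+DEX it ranged from 8.37 to 8.65 and read 8.48 and 8.44 at 120 and 240 min, below the EGF arrays of 8.80 and 9.03. The late difference between EGF+DEX and EGF was −0.45 ± 0.12 (adjusted p = 0.0587). None of the 8 genes was called in that late comparison, where 2.30% of all genes were and 2523 genes had an unadjusted p under 0.05.

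CDK4 (chromosome 12, 57747727 to 57752310), the other D cyclin kinase, was lower with EGF+DEX than with EGF, while its late difference between EGF and untreated cells was −0.07 ± 0.15 (95% interval −0.39 to 0.26). It read 10.35 and 10.14 untreated and 10.08 to 10.48 with EGF (median 10.27), whereas with EGF+DEX it read 10.04 and 10.03 at 20 min, 9.75 and 9.62 at 40 min, 10.02 and 9.97 at 60 min, 9.79 at 120 min and 9.84 at 240 min. All 8 EGF+DEX arrays were thus lower than all 8 EGF arrays, which held for 1 of the 8 genes and for 0.886% of all genes. The mean difference over the 5 times was −0.40 ± 0.08 (1.32-fold, limma, adjusted p = 0.00507), against a median of −0.09 for 473 genes of like brightness, of which 1.06% lay lower than CDK4. At 40 min it was −0.67 ± 0.15 (1.59-fold, 2 arrays against 2, limma, adjusted p = 0.0400), and 2 of the 8 genes, CDK4 and CDKN1B, passed at that time, as did 1.59% of all genes. DEX alone gave 9.82 to 10.30 (median 10.01), and its late difference from untreated cells was −0.38 ± 0.15 (adjusted p = 0.172).

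CDKN1B (chromosome 12, 12717368 to 12722369), whose promoter is shown above, encodes p27 and was lower with EGF, with DEX and, most of all, with both. The untreated arrays read 8.61 and 8.73. With EGF the arrays read 8.68 and 8.73 at 20 min, 8.59 and 8.69 at 40 min, 8.19 and 8.24 at 60 min, 7.91 at 120 min and 8.08 at 240 min. With DEX they read 8.52 and 8.51 at 20 min, 8.16 and 8.17 at 40 min, 7.83 and 7.71 at 60 min, 8.18 at 120 min and 8.12 at 240 min. EGF arrays overlapped the untreated pair up to 40 min and lay below it from 60 min, while all 8 DEX arrays lay below it, as in 5.39% of all genes.

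With EGF+DEX, CDKN1B read 8.34 and 7.63 at 20 min, 7.86 and 7.65 at 40 min, 7.50 and 7.46 at 60 min, 7.51 at 120 min and 7.45 at 240 min. The pair at 20 min was far apart, and from 60 min the arrays differed by little. At each of the 5 times all EGF+DEX arrays were lower than all EGF arrays, which held for 2 of the 8 genes, CDK4 and CDKN1B, and for 5.23% of all genes. At each time they were also lower than all DEX arrays, which held for 1 of the 8 genes and for 0.512% of all genes.

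In the test of EGF+DEX against EGF, 1 of the 8 genes was called lower, CDKN1B, where 0.386% of all genes were. CDKN1B fell by 0.67 ± 0.09 (1.60-fold, mean over the 5 times, 8 arrays against 8, limma, adjusted p = 1.35e-04), and the 2651 genes of like brightness had a median of −0.13, with 0.377% of them lower than CDKN1B. Leaving out each of the 26 arrays in turn gave −0.74 to −0.60 and kept the call, while cyclic loess, an alternative chosen after seeing the data, gave −0.55 (adjusted p = 5.54e-04), just under 1.5-fold. At the adjusted p alone, 4 of the 8 genes were lower, CCND1 (−0.27 ± 0.09), CDK4, CDK6 (−0.24 ± 0.06) and CDKN1B, and so were 14.1% of all genes. For CCND1 and CDK6 the medians of genes of like brightness were −0.12 and −0.12, and 10.8% and 16.1% of those genes lay lower. With cyclic loess neither passed (adjusted p = 0.227 and 0.159). CCND1 also missed the threshold in 8 of the 26 fits without 1 array (adjusted p up to 0.0744), and CDK6 in 2, those without a 240 min array of either treatment (0.104).

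**Figure D2:**
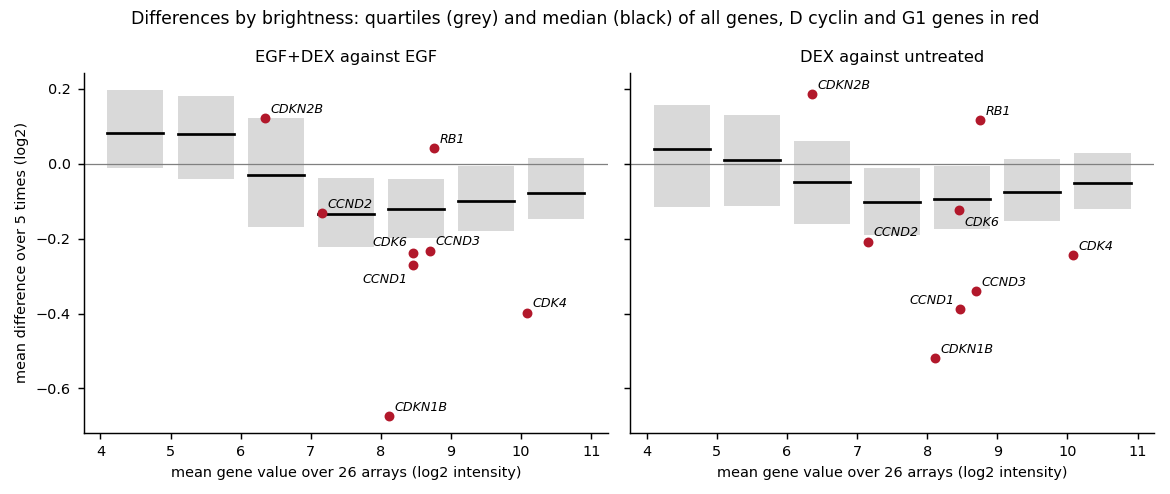
Mean difference over the 5 times (log2) against mean gene value over 26 arrays (log2 intensity), with the quartiles (grey bars) and median (black lines) of all genes in bins of brightness and the 8 genes in red. CDKN1B (−0.67) and CDK4 (−0.40) lie below the quartiles of their bins for EGF+DEX against EGF, and CCND2 (−0.13) lies near the median of its bin.

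Against DEX alone, EGF+DEX lowered CDKN1B by 0.52 ± 0.09 (1.43-fold, limma, adjusted p = 0.00293), with a median of 0.01 among genes of like brightness. None of the 8 genes reached 1.5-fold in this comparison, where 0.361% of all genes were called and 2835 genes had an unadjusted p under 0.05. At the adjusted p alone 3 of the 8 passed, CCND1 and CCND2 higher and CDKN1B lower, and 3.14% of all genes in either direction. With only the times to 60 min none of the 8 passed, and CDKN1B was at −0.41 (limma, adjusted p = 0.0960). CCND1 and CCND2 no longer passed without either 240 min array, as given above, while CDKN1B stayed at an adjusted p of 0.0202 or lower without any single array.

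EGF alone lowered CDKN1B at 120 and 240 min by 0.68 ± 0.16 (1.60-fold, 2 arrays against 2, limma, adjusted p = 0.0472), close to the threshold. The adjusted p exceeded 0.05 in 20 of the 26 fits that leave out 1 array (0.0525 to 0.361, the highest without untreated replicate 2), and the difference in all 26 lay between −0.76 and −0.59. Over all 5 times of EGF, the F-test called none of the 8 genes, where 0.729% of all genes were called and 1808 genes had an unadjusted p under 0.05. CDKN1B had the lowest adjusted p of the 8 there (0.121), with its largest difference of −0.76 at 120 min.

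DEX alone lowered CDKN1B with its largest difference at 60 min, −0.90 ± 0.16 (1.87-fold, 2 arrays against 2), with an adjusted p of 0.0286 in limma's F-test and 0.0124 at that time alone, where 0.807% of all genes passed. The mean difference over the DEX times was −0.52, with a median of −0.10 among genes of like brightness. The call of the F-test was lost without either untreated array, either DEX array at 20 min or either DEX array at 60 min (adjusted p of 0.0628 to 0.125), and with the stricter brightness filter, the mean of probesets or cyclic loess (0.0682, 0.0995 and 0.0574). At 120 and 240 min DEX gave −0.52 ± 0.16 (adjusted p = 0.0805), and 2 of the 8 genes, CCND1 and CCND2, were lower at the adjusted p alone, with 3.14% of all genes. CCND2 (−0.47) did not pass there without the DEX array at 240 min (−0.17, adjusted p = 0.739), without untreated replicate 1 or 2 (0.278 and 0.0514), with the mean of probesets (0.0560) or with cyclic loess (0.110).

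Against untreated cells at single times, EGF+DEX lowered CDKN1B by 0.92 ± 0.16 at 40 min (adjusted p = 0.00808), 1.19 ± 0.16 at 60 min, 1.16 ± 0.20 at 120 min and 1.22 ± 0.20 at 240 min (2.33-fold, adjusted p = 0.00182). CDKN1B was the only one of the 8 genes to pass at these times, at which 0.735%, 1.73%, 2.96% and 6.69% of all genes passed. At 40 min EGF+DEX was also lower than EGF by 0.89 ± 0.16 (limma, adjusted p = 0.0166).

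**Figure D3:**
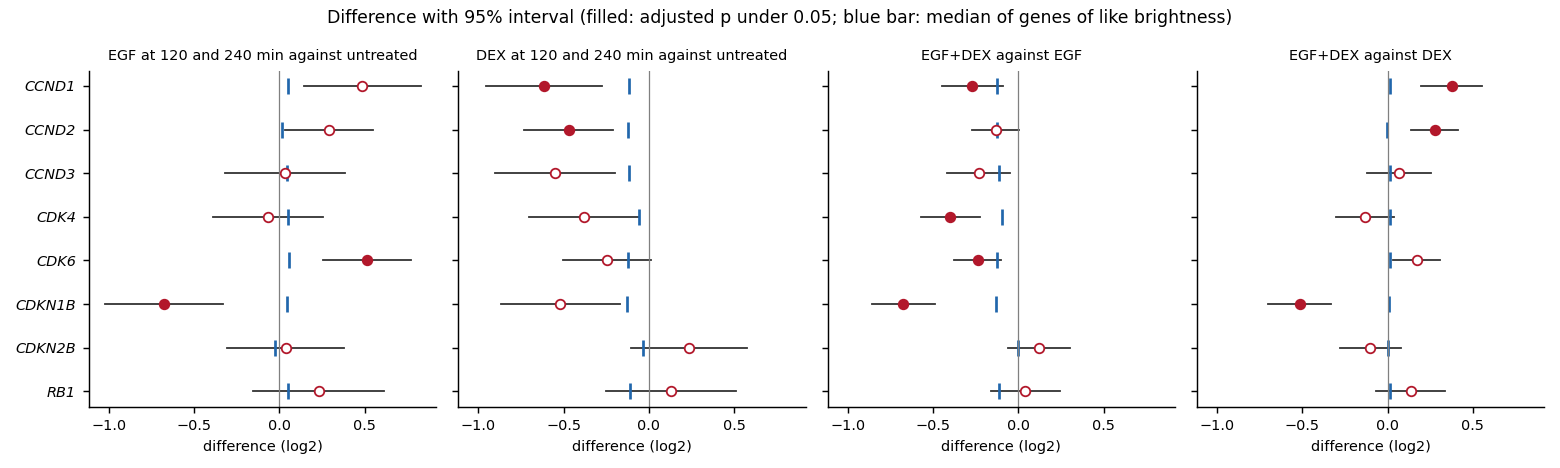
Difference (log2, point) with its 95% interval (line) for each of the 8 genes in 4 comparisons, filled where limma's adjusted p was under 0.05, with the median of genes of like brightness as a blue bar. CDKN1B lies below 0 in each panel, while CCND1 lies above 0 for late EGF (+0.49) and below it for late DEX (−0.61).

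Whether DEX acted differently with EGF than without it was tested as the interaction, the difference between EGF+DEX and EGF minus the difference between DEX and untreated cells. None of the 8 genes passed, and 0.00602% of all genes (1 gene) did, while 668 genes had an unadjusted p under 0.05. The interaction was −0.15 ± 0.16 for CDKN1B (95% interval −0.49 to 0.18) and +0.12 ± 0.15 for CCND1 (95% interval −0.21 to 0.45). At 240 min, with 1 array per treatment, the DEX difference without and with EGF was −0.90 and −0.18 for CCND1 and −0.77 and +0.07 for CCND2. It was −0.34 and −0.58 for CDK6 and −0.55 and −0.63 for CDKN1B. An interaction at single times was not tested.

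CDKN2B (chromosome 9, 22002903 to 22009313), the inhibitor of CDK4 and CDK6, had a low value and passed no comparison. It read 6.20 and 6.35 untreated, 6.002 to 6.55 with EGF (median 6.18), 6.33 to 6.60 with DEX (median 6.46) and 6.06 to 6.58 with EGF+DEX (median 6.41). The treatments overlapped, and the 16 group means spanned 0.46, less than 1.5-fold. The late DEX difference was +0.23 ± 0.16 (95% interval −0.11 to 0.57), and EGF+DEX against EGF gave +0.12 ± 0.09 (95% interval −0.06 to 0.30).

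Only 7 of the 11 CDKN2B probesets were above the background of 4.65, and 5 were above the stricter one of 5.97. MCF10A cells are known from other work to lack the part of 9p21 that holds CDKN2A and CDKN2B. On these arrays, the median probeset brightness around CDKN2B was 7.25 for KLHL9 (14 of 16 probesets above the background), 5.08 for IFNE (5 of 6), 3.95 for MTAP (6 of 18), 5.25 for CDKN2A (9 of 16), 5.89 for CDKN2B, 5.45 for DMRTA1 (8 of 12) and 6.17 for ELAVL2 (12 of 15). PGR, a luminal marker with 3 of 24 probesets above the background, still had a gene value of 6.78, because the gene value uses only the probesets that pass. A value near 6 therefore does not show that a transcript was present.

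**Figure D4:**
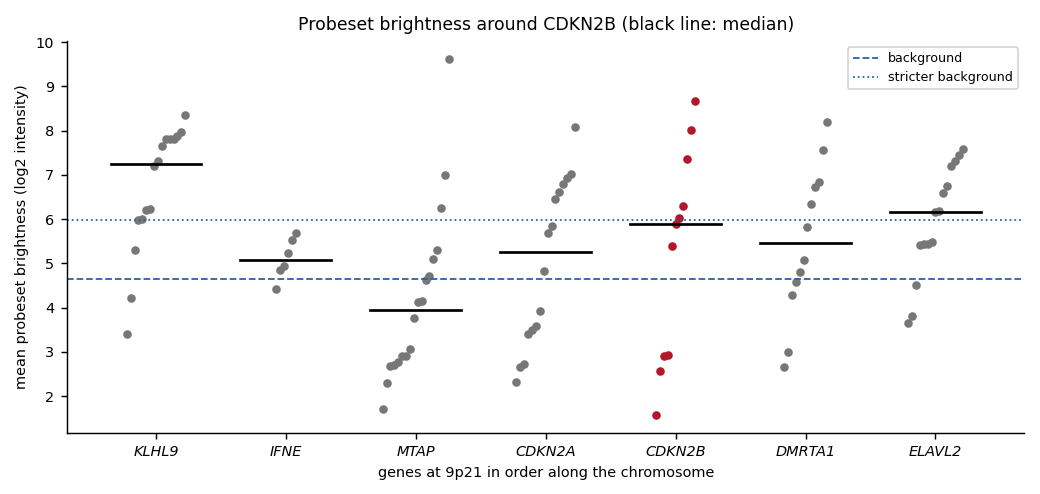
Mean brightness of each probeset (log2 intensity) for 7 genes at 9p21 in their order along the chromosome, with the median of each gene (black line), the background (4.65, dashed) and the stricter background (5.97, dotted). CDKN2B (red) has 7 of 11 probesets above the background, and MTAP has 6 of 18.

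Of the 7 genes at 9p21, 1 was called, IFNE, an interferon made by epithelial cells of mucosal surfaces. It read 5.77 and 5.21 untreated, 7.07 with EGF at 120 min and 5.65 with EGF at 240 min, and 4.30 with DEX at 240 min. The high value was that of a single array. EGF raised its value by 1.58 at 120 min (limma F-test, adjusted p = 0.0301), where 0.572% of all genes were called higher. DEX lowered it by 1.19 at 240 min (limma F-test, adjusted p = 0.0222), where 1.92% were called lower. EGF+DEX was lower than EGF by 0.78 ± 0.13 (limma, adjusted p = 0.00108), where 0.386% were called lower. The gene value of IFNE was 5.27 and its median probeset brightness 5.08, close to the background. These are therefore differences in brightness, and whether the transcript was present was not tested.

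RB1 (chromosome 13, 48303751 to 48481890), the substrate of the D cyclin kinases, passed no comparison. It read 8.82 and 8.36 untreated, a wider gap than in any of the other 7 genes, and 8.56 to 9.16 with EGF (median 8.77), 8.45 to 8.92 with DEX (median 8.71) and 8.49 to 9.23 with EGF+DEX (median 8.78). The 4 sets of arrays overlapped. The highest value was EGF+DEX at 240 min, 0.64 ± 0.22 above the untreated mean (limma, adjusted p = 0.0953), and the mean difference of EGF+DEX against EGF was +0.04 ± 0.10 (95% interval −0.16 to 0.24).

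Probesets within a gene share its transcripts and are not replicates, and few passed by themselves. For late EGF, all 12 CCND1 probesets above the background (median +0.58) and all 20 of CDK6 (median +0.41) were higher, and all 5 of CDKN1B were lower (median −0.78). None of the probesets of the 8 genes passed there, where 0.00191% of all probesets did. For late DEX, 11 of 12 CCND1 probesets were lower (median −0.51), and 1 passed, at −1.94 (limma, adjusted p = 0.00622), where 0.645% of all probesets passed and 57.5% were lower. For EGF+DEX against EGF, all 13 CDK4 probesets (median −0.42) and all 5 of CDKN1B (median −0.70) were lower, and 1 of CDKN1B passed (−0.97, adjusted p = 0.00589), where 1.28% of all probesets passed and 59.9% were lower.

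**Figure D5:**
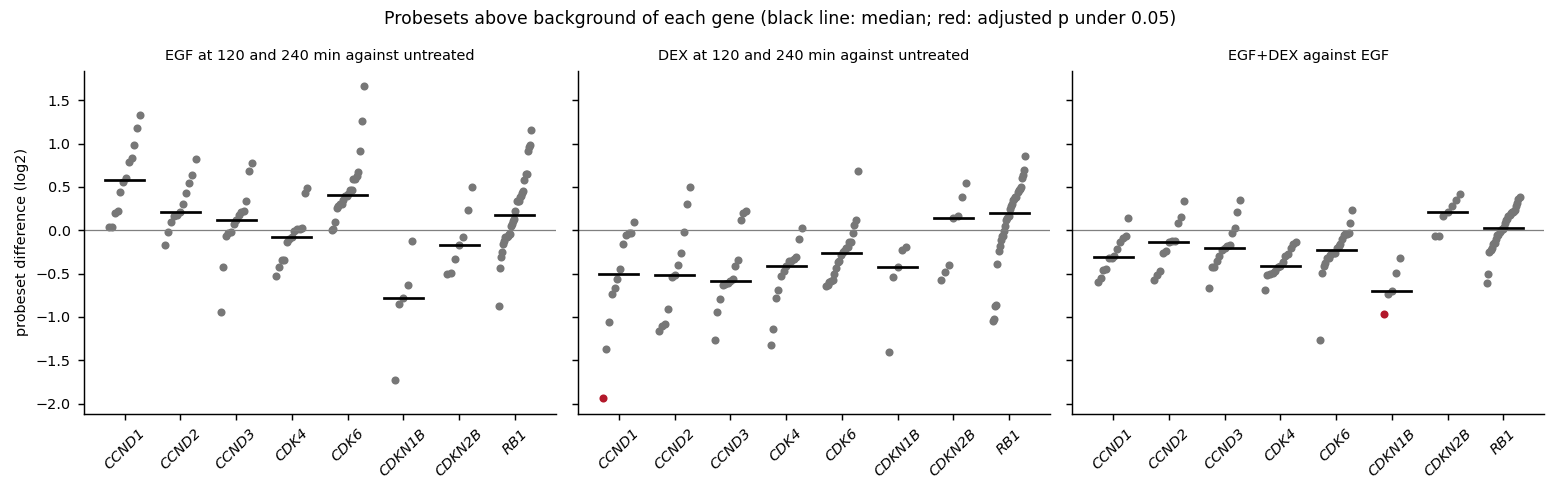
Difference (log2) of each probeset above the background for each of the 8 genes in 3 comparisons, with the median of the gene (black line) and probesets with an adjusted p under 0.05 in red. The CCND1 and CDK6 probesets lie above 0 for late EGF, and the CDKN1B probesets lie below 0 in all 3 panels.

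Across the 16 group means, Pearson's r was 0.86 between CCND1 and CCND2, 0.86 between CCND1 and CDK6, 0.78 between CCND1 and CCND3 and 0.74 between CCND2 and CDK6. For CDKN1B it was 0.72 with CDK4 and −0.10 with CCND1. The points share arrays, untreated cells and normalization, so these are descriptions.

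Among 9119 genes whose group means spanned at least 1.5-fold, the genes most like CCND1 over the 16 means were LRP8 (r = 0.964), WDR35 (0.962) and the ETS factor ETV5 (0.959), and those most like CCND2 were PYROXD1 (0.958), the hyaluronan receptor CD44 (0.947) and TNFAIP1 (0.946). For CDK6 they were the kinase ZAK (0.963), TMEM206 (0.945) and PAG1 (0.943), and for CDK4 SAAL1 (0.961), C15orf24 (0.955) and the chromatin remodeller SMARCA4 (0.916). CDKN1B was most like MVK (0.925), the mevalonate kinase, the keratin KRT14 (0.909) and ZNF674 (0.892). The values were lower for CCND3, with IRF3 (0.905), KRT86 (0.899) and CDCA4 (0.895), and for RB1, with HPRT1 (0.889), RCN2 (0.882) and USP14 (0.876).

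The next step of the pathway, cyclin E with CDK2 and the other CDK inhibitors (15 genes, all measured), had few calls. DEX lowered 2 of the 15, CCNE1 (−0.77, adjusted p = 0.00663) and CCNE2 (−0.86, adjusted p = 0.0424), both cyclins that activate CDK2, each with its largest difference at 240 min, where 1.92% of all genes were called lower. Late EGF raised 1, CCNE2, by 0.75 ± 0.18 (limma, adjusted p = 0.0472), where 0.873% of all genes were called higher. The list's median over the late DEX arrays was −0.25, with −0.06 over all genes and −0.14 over genes with values of 7 to 8, the range of the list's median level of 7.30.

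Of 12 pocket proteins, E2F and DP factors, DEX lowered 1, E2F7, an E2F family repressor, by 0.98 at 120 min (limma F-test, adjusted p = 0.00296, 1.92% of all genes called lower), and EGF+DEX was lower than EGF in the same gene by 0.61 ± 0.08 (adjusted p = 1.86e-04, 0.386% of all genes called lower). Late EGF raised 1 of the 12, E2F5, by 0.72 ± 0.14 (adjusted p = 0.0189, 0.873% of all genes called higher). Of 15 measured E2F target genes of the G1 to S transition (17 listed), 1 was called, CDC6, a licensing factor of DNA replication, lower by 0.60 ± 0.14 with EGF+DEX against EGF (adjusted p = 0.0114), where 0.386% of all genes were called lower. The list's median in that comparison was −0.23, with −0.05 over all genes and −0.12 over genes with values of 8 to 9, the range that holds the list's median level of 8.38. None of 9 genes for the assembly and turnover of D cyclins was called in any of the 8 comparisons.

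Of 14 measured transcription factors known to act on CCND1, EGF raised 5, the AP-1 subunits FOS (+3.19 at 40 min), JUN (+2.07 at 40 min), JUNB (+1.34 at 40 min) and FOSL1 (+2.10 at 60 min) and the zinc finger factor EGR1 (+2.32 at 40 min), with adjusted p between 3.85e-05 and 0.00592 in limma's F-test, where 0.572% of all genes were called higher. DEX raised FOS (+1.86 at 40 min) and FOSL2 (+0.95 at 240 min) and lowered ETS1 (−0.85 at 240 min) and EGR1 (−1.26 at 120 min), with adjusted p between 0.00539 and 0.0308, where 1.62% of all genes were called higher and 1.92% lower. ETS1, a factor of the ETS family, was also the only one of the 14 called for EGF+DEX against EGF at the late times, lower by 0.62 ± 0.13 (adjusted p = 0.0148, 1.33% of all genes called lower). With EGF+DEX against DEX, 4 were higher, EGR1 by 1.62 ± 0.16, FOSL1 by 1.39 ± 0.09, JUNB by 0.94 ± 0.11 and FOS by 0.87 ± 0.18 (limma, adjusted p between 3.20e-07 and 0.0113), where 0.289% of all genes were called higher.

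Of 10 factors known to act on CDKN1B or CDKN2B, DEX raised 1, FOXO3, a forkhead factor known to activate CDKN1B, by 1.07 at 240 min (limma F-test, adjusted p = 5.03e-05), and lowered 1, SMAD3, which carries TGF-β signals to CDKN2B, by 0.95 at 240 min (adjusted p = 0.0309), where 1.62% of all genes were called higher and 1.92% lower. With both agents against EGF at 120 and 240 min, FOXO3 was higher by 0.66 ± 0.11 (adjusted p = 0.00159), and SMAD3 lower by 0.86 ± 0.16 (adjusted p = 0.00616). In that comparison 0.964% of all genes were called higher and 1.33% lower.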

How the data were processed

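The authors hybridised total RNA of MCF10A cells, labelled with biotin, to exon arrays (Human Exon 1.0 ST, Affymetrix), processed them in Expression Console and deposited a linear intensity for each probeset (1 to 19500). Its version, summary method and background correction are not stated by the labels or the methods. Log2 of the intensities was used as deposited, with no normalization added. Of the 844005 probesets, 354421 carry 1 symbol in the platform annotation, 14891 several (left out) and 474693 none. A gene value is Tukey's median polish of the single-symbol probesets whose mean was above the background, with at least 3 per gene. A gene value sums over transcript forms, so differences between exons can move it.

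All 26 arrays entered 1 group-means model (16 groups, 10 residual degrees of freedom) in limma 3.58.1 (R 4.3.3, matrixStats 1.5.0) with eBayes, adjusted after Benjamini and Hochberg over all genes. Means over times are means of the differences at each time. The number of arrays limits the precision. Plots used Python 3.11.15 with matplotlib 3.10.9. Alternatives were the replicate number as a block, quantile normalization, a stricter brightness filter or none, the probesets' mean, trend and robust options, no fold minimum, only the times to 60 min, each array left out in turn and, chosen after seeing the data, cyclic loess between arrays. The procedure was tested on simulated data.

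The 8 genes and the other lists were chosen with earlier results of these data known. From each list the called genes were named, up to the 4 with the largest difference where over 5 were called, as were all genes at 9p21 and, for each of the 8 genes spanning at least 1.5-fold, the 3 genes most like it. Gene positions and promoters are those of RefSeq on GRCh38.p14. MYC and LUM had too few probesets above the background, and some other listed genes are not reported here. PGR was named after its values were seen.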

Additional observations from a re-analysis of the deposited data

How the results depend on the processing

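Of 2216 results for the 8 genes under alternatives (every alternative that could be run for each comparison), 2159 kept their side of the call, 42 lost the call, 15 gained it and none that was called reversed. Most of these results had no call to lose. The 42 losses fell on CDKN1B with late EGF (21 of 34 alternatives) and with DEX over all times (9 of 35). They also fell on CCND1 with late DEX (6 of 34), CCND2 with DEX over all times (5 of 35) and CDKN1B for EGF+DEX against EGF (1 of 35). Some results without a call changed sign, such as RB1 with DEX over all times, which ranged from −0.27 to +0.53. The members called by DEX over all times numbered 2, and 1 with the stricter brightness filter or only the times to 60 min, and 0 with the mean of probesets or cyclic loess. For late DEX there were 1, and 2 with the stricter filter or no fold minimum, and 0 with quantile normalization, the mean of probesets or cyclic loess. For late EGF there were 1, 0 without the brightness filter and 2 with no fold minimum. EGF+DEX against EGF gave 1 member, 4 with no fold minimum and 0 with cyclic loess, under which CDKN1B was at −0.55 (adjusted p = 5.54e-04), under 1.5-fold. EGF+DEX against DEX gave 0 members, 1 with the stricter filter (CDKN1B, −0.61) and 3 with no fold minimum.

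Counts of all genes moved in the following. With only the times to 60 min the counts were 77 for DEX (588 with all times), 70 for EGF (121) and 34 for EGF+DEX against DEX (60). With no fold minimum EGF+DEX against EGF had 3374 genes in place of 125 (1957 with cyclic loess), and EGF+DEX against DEX 521. The single gene of the interaction fell to 0 without the brightness filter, with the mean of probesets, with trend and robust options and with only the times to 60 min.

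Leaving out each array in turn gave 209 to 615 genes and 0 to 2 members for DEX, 256 to 842 and 0 to 2 for late DEX, 66 to 139 and 0 to 1 for EGF, 24 to 251 and 0 to 1 for late EGF, 99 to 146 and 1 for EGF+DEX against EGF, 38 to 69 and 0 to 1 for EGF+DEX against DEX, 156 to 392 and 0 for late EGF+DEX against EGF, and 0 to 1 genes for the interaction. The causes were not tested, beyond the arrays left out.

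The replicate numbers were not used as pairs in the main model. In 45 pairs of groups the replicate differences correlated between −0.20 and 0.31, with a median of 0.03 and 12 over 0.1. With the replicate number as a block, the interaction had 0 genes, DEX 616, late DEX 633, EGF 129, late EGF 253 and EGF+DEX against EGF 125, and no call of a member changed. Dim probesets limit CDKN2B most, with 4 of 11 below the background.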
